A study of Mus musculus with 8 samples.

Results

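The proteasome genes of mouse hind limb muscle were compared between 5-day unloaded and weight bearing animals. The genes were taken by name alone: every probe set whose symbol starts with Psma, Psmb, Psmc, Psmd, Psme, Psmf or Psmg followed by a digit, plus Pomp. This gave 50 of the 21212 probe sets on the arrays, 1 for each gene. They fell by role into 8 alpha subunits and 6 beta subunits of the 20S core, 4 immunoproteasome and thymoproteasome subunits, 9 subunits of the 19S base, 8 of the 19S lid, 5 activators and regulators, and 8 assembly chaperones. The other 2, Psmc3ip and Psme3ip1, carry the name of a proteasome protein but are not part of the particle. Psmb5, the constitutive subunit with chymotrypsin-like activity, was not analysed here.

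The unloaded group (HU) was made up of 4 wild type C57BL/6J female mice, 7 weeks old, whose hind limbs were kept off the floor of the cage for 5 days. The weight bearing group (WB) was made up of 4 mice of the same strain, sex and age that walked normally, and mice were put into the groups at random. Each of the 8 arrays measured RNA from the gastrocnemius and plantaris, the muscles of the calf, of a separate mouse. Unloading removes the weight-bearing work of the calf and leads to muscle atrophy, and the study asked which genes and regulators take part in it. Whole muscle holds fibres together with connective tissue, vessel and immune cells, so in these samples fewer cells of a type and less RNA per cell cannot be told apart.

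The proteasome degrades proteins that carry chains of ubiquitin, and in skeletal muscle it takes down much of the myofibrillar protein that is lost in atrophy. Its 20S core is a barrel in which outer rings of alpha subunits gate the entrance and inner rings of beta subunits hold the proteolytic sites. The 19S cap sits on the barrel: its base binds ubiquitin, unfolds the substrate with a ring of ATPases and threads it into the core, and its lid removes the ubiquitin. Interferon-inducible beta subunits can replace the constitutive catalytic ones to form the immunoproteasome, other activators can take the place of the cap, and dedicated chaperones build the rings.

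Unloaded muscle had more mRNA for most subunits of the 19S cap and for 7 of the 14 subunits measured in the 20S core, while none of the immunoproteasome genes was called and the chaperones gave 1 call in each direction. Of the 50 genes, 22 were higher in HU (44.0%) and 2 were lower (4.00%) at an adjusted p under 0.05 (limma, Benjamini-Hochberg over all probe sets). Over all 21212 probe sets the same test called 12.8% higher and 11.0% lower. The 22 genes that rose did so by 1.11-fold (Psmb7) to 1.57-fold (Psmd4), with a median of 1.19-fold, so the changes were small next to those of genes such as the collagens given further on. Of these 22, the rise reached 1.2-fold or more for 11, and it passed 1.5-fold for 3, Psma7, Psmd2 and Psmd4. Of the 50 genes, only Psme1 and Psmg2 fell.

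The 31 subunits that build the core and the cap carried most of this. Of them, 20 were called higher by limma and 16 by the methods' t-test, and neither test called any lower (1, Psma1, was lower at an unadjusted limma p under 0.05). Their median log2 change was 0.21, against 0.14 for all 50 genes and 0.04 for all probe sets. All 4 HU arrays lay above all 4 WB arrays for 25 of the 50 genes, against 15.5% of all probe sets. All HU arrays lay below all WB arrays for 4 genes (Psma1, Psme1, Psmg1 and Psmg2), against 12.0% of all probe sets. Proteasome genes are bright on these arrays, and bright probe sets were called more often: among the brighter 50% of probe sets, tested on their own, 20.8% were called higher and 21.9% lower, and of the 46 proteasome genes in that set 24 were called higher and 4 lower. The methods' t-test with Benjamini-Hochberg adjustment called 16 of the 50 genes higher, all among the 22, and the same 2 genes lower. With Storey q-values in place of that adjustment, 24 genes were called higher, including all of the 22, and 3 were called lower.

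**Figure D1:**
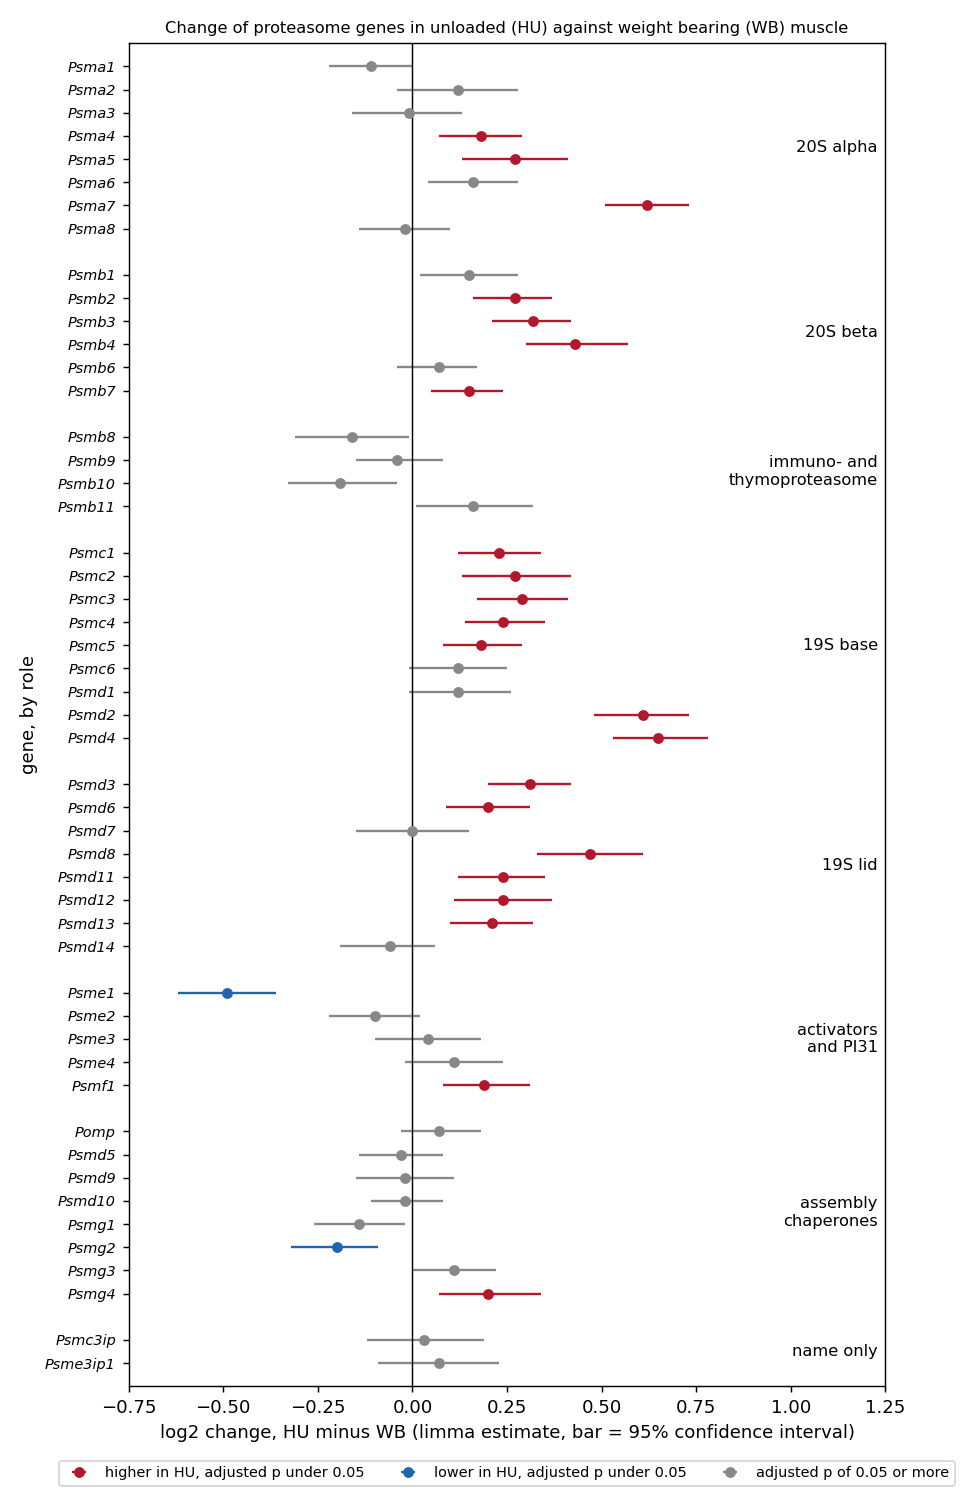
Log2 change (HU minus WB, limma) of the 50 proteasome genes, grouped by role; points are the estimates, bars the 95% confidence intervals, and colours mark an adjusted p under 0.05. The changes of Psma7, Psmd2 and Psmd4 stand to the right at 0.62, 0.61 and 0.65, and that of Psme1 stands to the left at -0.49.

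To judge which genes gave a signal at all, levels were set against 1280 olfactory and vomeronasal receptor probe sets, which muscle is not known to express. Their median log2 level was 3.36 and their 97.5 percentile was 5.69. Of the proteasome genes, 47 lay above that percentile. The other 3 were Psma8, the alpha subunit of the testis proteasome (mean level 3.22), Psmb11, the subunit of the thymus proteasome (5.02), and the chaperone Psmg3 (5.54); none of the 3 was called, and no fold change is given for them.

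In the alpha rings, 3 of 8 subunits rose, and the median log2 change was 0.14. Psma7 had the largest change, with log2 levels of 9.36, 9.36, 9.34 and 9.42 in HU against 8.83, 8.75, 8.68 and 8.72 in WB. The lowest HU array thus lay above the highest WB array by far more than either group spread. The increase was 1.54-fold (log2 change 0.62 ± 0.05 SE, n = 4 each, limma adjusted p = 3.0e-05).

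Psma5 and Psma4, which take part in the ring that gates the barrel, rose less. Psma5 had 8.82, 8.76, 8.64 and 8.55 in HU against 8.50, 8.41, 8.40 and 8.40 in WB, a 1.2-fold increase (limma adjusted p = 0.0131), with its lowest HU array close to its highest WB array. Psma4 had 9.96, 9.84, 9.83 and 9.95 in HU against 9.71, 9.67, 9.74 and 9.72 in WB, a 1.13-fold increase (limma adjusted p = 0.0267). The Psma4 call rested on the full set of arrays: its limma adjusted p was 0.0556 without HU replicate 1, 0.0722 without HU replicate 4, 0.0608 without WB replicate 1 and 0.0685 without WB replicate 2. With the methods' t-test neither Psma4 (adjusted p = 0.0603) nor Psma5 (adjusted p = 0.0756) passed, which left Psma7 alone among the alpha subunits.

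The other alpha subunits did not pass the test and did not all point the same way. Psma3 changed least, with 8.66, 8.51, 8.45 and 8.38 in HU against 8.57, 8.56, 8.43 and 8.48 in WB, and its groups overlapped throughout (log2 change -0.01, 95% confidence interval -0.16 to 0.13, limma adjusted p = 0.919). Psma6 (0.16, limma adjusted p = 0.0573) and Psma2 (0.12, limma adjusted p = 0.251) had positive log2 changes, and Psma1 had -0.11 (limma adjusted p = 0.131) with every HU array below every WB array.

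Of the 6 constitutive beta subunits measured, 4 rose, none fell, and the median log2 change was 0.21. The 3 with the largest changes were structural, with no proteolytic site of their own. Psmb4 had 11.17, 11.11, 11.19 and 11.28 in HU against 10.79, 10.62, 10.76 and 10.83 in WB (1.35-fold, limma adjusted p = 8.1e-04). Psmb3 had 11.93, 11.89, 11.94 and 12.05 in HU against 11.66, 11.61, 11.62 and 11.66 in WB (1.24-fold, limma adjusted p = 0.00153). Psmb2 had 10.89, 10.82, 10.80 and 10.90 in HU against 10.61, 10.58, 10.54 and 10.63 in WB (1.2-fold, limma adjusted p = 0.00307). None of these 3 genes had an HU array within the WB range.

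The catalytic beta subunits that were measured, Psmb7 and Psmb6, moved less than Psmb4, Psmb3 and Psmb2. Psmb7, which carries the trypsin-like site, had 10.71, 10.70, 10.76 and 10.72 in HU against 10.57, 10.57, 10.61 and 10.55 in WB, a 1.11-fold increase (limma adjusted p = 0.0294). Its call was lost without HU replicate 3 (0.075), HU replicate 4 (0.064), WB replicate 1 (0.0695), WB replicate 2 (0.0646) or WB replicate 4 (0.0656), each a limma adjusted p, although the groups did not overlap. Psmb6, which carries the caspase-like site, had 10.46, 10.52, 10.53 and 10.61 in HU against 10.44, 10.46, 10.48 and 10.47 in WB, and was not called (log2 change 0.07, 95% confidence interval -0.04 to 0.17, limma adjusted p = 0.316). For Psmb7, the paper's RT-qPCR lists a larger fold increase with unloading than the arrays gave, and the cause of this difference was not tested. RefSeq lists pseudogenes of Psma5, Psmb6 and Psmb7, and whether their transcripts share signal with these probe sets was not tested. The remaining structural subunit, Psmb1, had a log2 change of 0.15 (limma adjusted p = 0.0886), the same as that of catalytic Psmb7 (0.15).

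**Figure D2:**
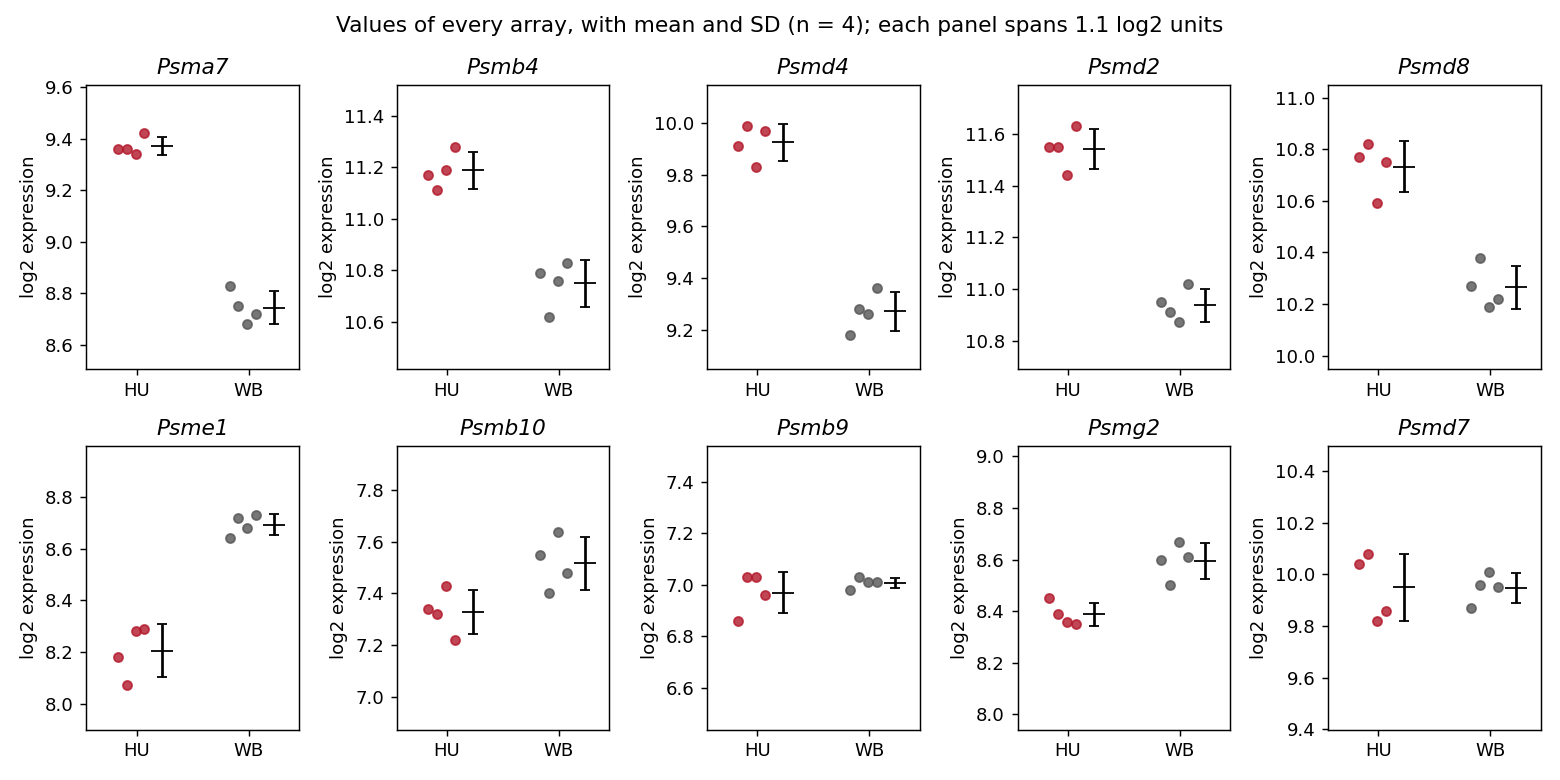
Log2 expression of 10 proteasome genes in each array, HU on the left and WB on the right of each panel; the horizontal marks are the group means and the bars the SD (n = 4). Every panel spans the same range, so the gaps of Psma7, Psmb4, Psmd4, Psmd2, Psmd8 and Psme1 can be compared with the smaller gap of Psmg2 and the overlap of Psmb10, Psmb9 and Psmd7.

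None of the 4 immunoproteasome and thymoproteasome genes was called by limma or by the methods' t-test, and their median log2 change was -0.10, or -0.16 for the 3 without Psmb11. At an unadjusted p under 0.05, 2 of them were lower (Psmb8 and Psmb10) and 1 was higher (Psmb11, which lay at background level). Psmb8, the inducible subunit with chymotrypsin-like activity, had 6.41, 6.62, 6.57 and 6.50 in HU against 6.63, 6.83, 6.58 and 6.71 in WB, with overlapping groups (log2 change -0.16, 95% confidence interval -0.31 to -0.01, limma adjusted p = 0.105). Psmb9, which takes the place of Psmb6, had 6.86, 7.03, 7.03 and 6.96 in HU against 6.98, 7.03, 7.01 and 7.01 in WB (-0.04, 95% confidence interval -0.15 to 0.08, limma adjusted p = 0.646). Psmb10, which takes the place of Psmb7, had 7.34, 7.32, 7.43 and 7.22 in HU against 7.55, 7.40, 7.64 and 7.48 in WB.

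Psmb10 stood close to the threshold from below, with a log2 change of -0.19 (95% confidence interval -0.33 to -0.04, limma adjusted p = 0.0604) and groups that overlapped by a single HU array. Without HU replicate 3 it was called lower (-0.22, limma adjusted p = 0.0497), and likewise without WB replicate 2 (-0.23, limma adjusted p = 0.0412). It was also called lower without the dimmest 25% (0.0456) or 50% (0.0334) of probe sets and with an intensity trend and robust variances (0.0494), each a limma adjusted p.

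Within each array, the inducible subunit was then set against the constitutive subunit that it replaces. The log2 ratio of Psmb10 to Psmb7 was -3.38, -3.38, -3.33 and -3.50 in HU against -3.02, -3.17, -2.97 and -3.07 in WB. This ratio was lower in HU by a mean of -0.34 with no overlap between the groups (two-sided exact permutation test, p = 0.0286, adjusted p = 0.0286 over 2 pairs). The ratio of Psmb9 to Psmb6 was -3.59, -3.49, -3.49 and -3.65 in HU against -3.46, -3.43, -3.47 and -3.46 in WB, a difference of -0.10 with the same exact permutation p of 0.0286, which is the smallest that 4 against 4 arrays can give. For Psmb9 to Psmb6 the exact permutation p was 0.0857 without WB replicate 1, 3 or 4, 0.114 without WB replicate 2 and 0.0571 after quantile normalization. Such a ratio shows that the members of a pair changed unequally, and its value does not give their relative amounts.

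Markers of other cell types moved in the same comparison and are given here beside the immunoproteasome, which is abundant in immune cells. Of all probe sets, 11.0% were called lower in HU, and of the brighter probe sets, tested on their own, 21.9%. Of 13 macrophage markers, 9 were called lower in HU (69.2%) and none higher. Their summed linear level was 2125 to 2669 in HU against 2797 to 3355 in WB, without overlap, and the 3 largest falls were those of Adgre1 (1.69-fold lower, limma adjusted p = 2.1e-04), Mrc1 (1.61-fold lower, 5.7e-04) and C1qb (1.51-fold lower, 0.00103). Of 9 lymphocyte markers none was called by limma, 1 had an unadjusted p under 0.05 (Cd3g, log2 change 0.20, limma adjusted p = 0.0952, and 0.0137 without HU replicate 1), and the summed level was 233 to 251 in HU against 226 to 255 in WB. The mean levels of these lymphocyte markers, 3.36 to 5.61, all lay below the 97.5 percentile of the receptor genes. The part of the macrophage markers in the values of Psmb8, Psmb9, Psmb10 and Psme1 was not tested.

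All 9 subunits of the 19S base had a positive log2 change, 7 of them were called higher, and the median was 0.24. Psmd4, the ubiquitin receptor that sits where base and lid meet, had the largest change of all 50 genes. It had 9.91, 9.99, 9.83 and 9.97 in HU against 9.18, 9.28, 9.26 and 9.36 in WB, a 1.57-fold increase (log2 change 0.65 ± 0.06 SE, n = 4 each, limma adjusted p = 5.0e-05). Psmd2, the scaffold on which ubiquitin shuttle proteins dock, had 11.55, 11.55, 11.44 and 11.63 in HU against 10.95, 10.91, 10.87 and 11.02 in WB, a 1.52-fold increase (0.61 ± 0.06 SE, limma adjusted p = 7.3e-05). For both genes the difference of the means was several times the SD of either group.

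The 6 ATPases of the base changed by similar, smaller amounts, with log2 changes between 0.12 and 0.29, and 5 of the 6 were called. Psmc3 had 9.87, 9.97, 9.80 and 9.92 in HU against 9.64, 9.53, 9.59 and 9.66 in WB (1.22-fold, limma adjusted p = 0.00384). Psmc4 had 10.00, 10.04, 9.94 and 10.04 in HU against 9.75, 9.75, 9.73 and 9.83 in WB (1.18-fold, 0.0054). Psmc1 had 9.68, 9.72, 9.63 and 9.76 in HU against 9.49, 9.44, 9.42 and 9.53 in WB (1.17-fold, 0.00846). The tails of these 3 ATPases dock into the alpha ring and open its gate, and none had an HU array within the WB range.

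Psmc5 had 9.10, 9.05, 9.10 and 9.10 in HU against 8.93, 8.86, 8.97 and 8.87 in WB (1.14-fold, limma adjusted p = 0.0173), and Psmc2 rose 1.21-fold (limma adjusted p = 0.0142) but was not called by the methods' t-test. Psmc6 changed least in the base, with 9.90, 9.76, 9.73 and 9.73 in HU against 9.61, 9.59, 9.78 and 9.65 in WB, where WB replicate 3 lay inside the HU range (log2 change 0.12, 95% confidence interval -0.01 to 0.25, limma adjusted p = 0.177). The scaffold Psmd1 had a log2 change of 0.12 as well (limma adjusted p = 0.161); it was among the genes called higher without HU replicate 3.

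In the lid, 6 of 8 subunits rose and the median log2 change was 0.22. Psmd8 had 10.77, 10.82, 10.59 and 10.75 in HU against 10.27, 10.38, 10.19 and 10.22 in WB (1.38-fold, limma adjusted p = 6.9e-04). Psmd3 had 9.39, 9.41, 9.41 and 9.43 in HU, the tightest HU group of all 50 genes (SD 0.02), against 9.12, 8.99, 9.17 and 9.12 in WB (1.24-fold, 0.00205). Psmd12 had 10.10, 10.00, 9.99 and 9.93 in HU against 9.70, 9.68, 9.81 and 9.86 in WB (1.18-fold, 0.0136). These 3 are scaffold subunits that frame the lid, and the others that rose, Psmd6, Psmd11 and Psmd13, are of the same kind, with log2 changes of 0.20, 0.24 and 0.21. Psmd6 was not called by the methods' t-test.

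The subunits that did not pass were the pair that removes ubiquitin from the substrate. Psmd14, the deubiquitinating enzyme of the lid, had a log2 change of -0.06 (95% confidence interval -0.19 to 0.06, limma adjusted p = 0.45). Its partner Psmd7 had 10.04, 10.08, 9.82 and 9.86 in HU against 9.87, 9.96, 10.01 and 9.95 in WB. The HU arrays of Psmd7 split around the WB arrays, giving the widest HU group of all 50 genes (SD 0.13) and a log2 change of 0.00 (95% confidence interval -0.15 to 0.15, limma adjusted p = 0.975).

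**Figure D3:**
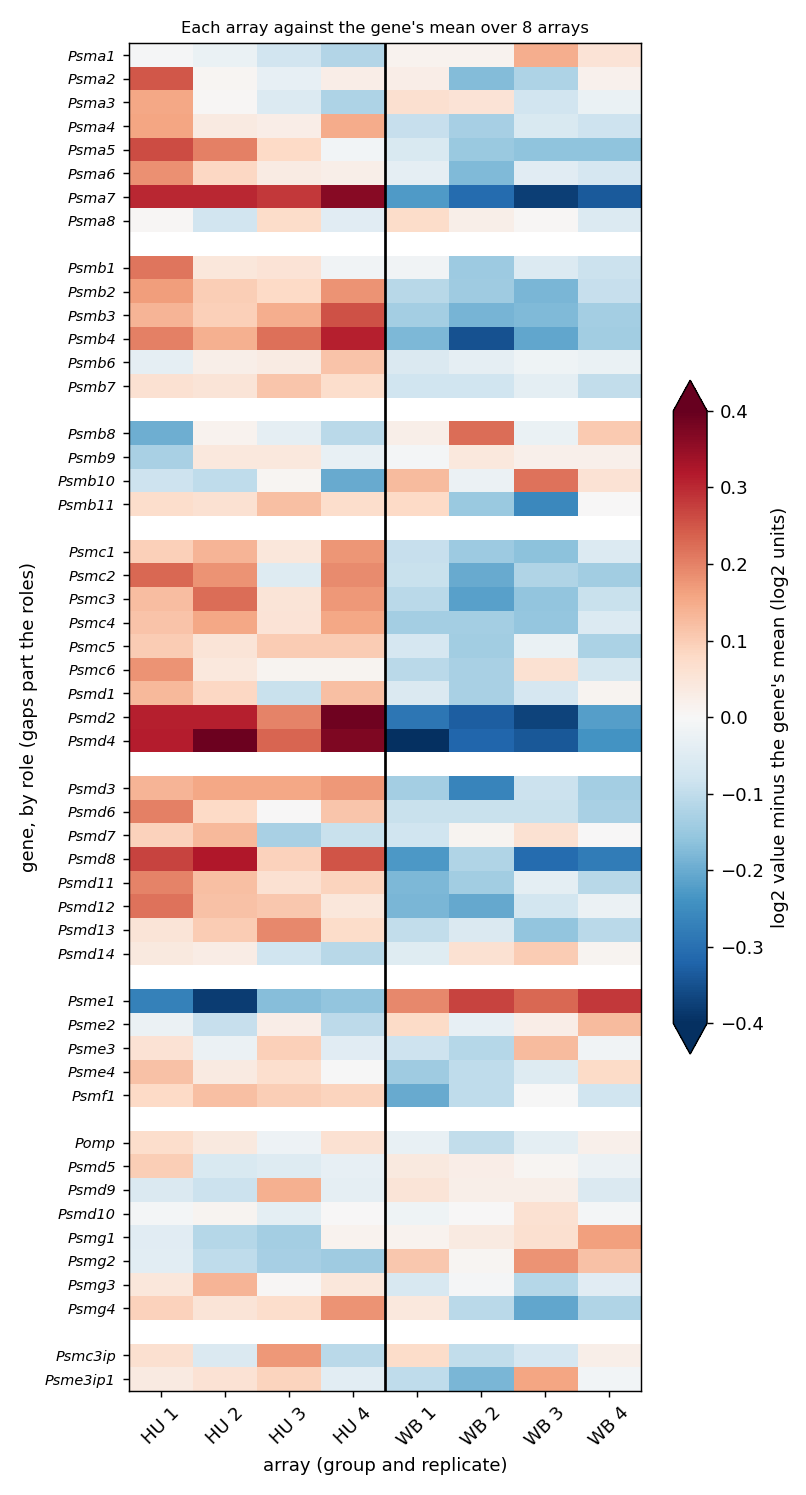
Each row is a proteasome gene and each column an array, 4 HU on the left and 4 WB on the right; colour gives the log2 value minus the mean of that gene over the 8 arrays, and colours saturate at the ends of the scale. Rows of the 19S base are red in HU and blue in WB nearly throughout, and Psme1 shows the opposite pattern.

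Among the activators and regulators, Psme1 had the largest fall of the 50 genes. It encodes the alpha chain of the interferon-inducible activator that opens the core without ubiquitin or ATP. Its log2 levels were 8.18, 8.07, 8.28 and 8.29 in HU against 8.64, 8.72, 8.68 and 8.73 in WB, 1.40-fold lower in HU with no overlap (log2 change -0.49 ± 0.06 SE, n = 4 each, limma adjusted p = 3.5e-04). Psme2, which encodes the beta chain of the same ring, was not called and its groups overlapped (-0.10, 95% confidence interval -0.22 to 0.02, limma adjusted p = 0.205).

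Psmf1, a regulator first described as an inhibitor of the core, had 8.33, 8.37, 8.35 and 8.34 in HU against 8.05, 8.15, 8.25 and 8.17 in WB, a 1.14-fold increase (limma adjusted p = 0.0229). Its call was lost without HU replicate 2 (0.058), HU replicate 3 (0.0521) or WB replicate 1 (0.0621), each a limma adjusted p, and with the methods' t-test (adjusted p = 0.082). Psme3, the nuclear activator, had 9.80, 9.72, 9.84 and 9.70 in HU against 9.66, 9.63, 9.87 and 9.73 in WB, with overlapping groups (0.04, limma adjusted p = 0.649). Psme4, which caps the core in the nucleus, had a log2 change of 0.11 (limma adjusted p = 0.199).

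Of the 8 assembly chaperones, 1 was called higher and 1 lower (12.5% each, against 12.8% and 11.0% of all probe sets), with a median log2 change of -0.02. Psmg2, which with Psmg1 guides the alpha ring together, had 8.45, 8.39, 8.36 and 8.35 in HU against 8.60, 8.50, 8.67 and 8.61 in WB, 1.15-fold lower in HU (limma adjusted p = 0.0183). Psmg1 had a log2 change of -0.14 (limma adjusted p = 0.0846), also with every HU array below every WB array. Psmg4, which acts on the alpha ring with Psmg3, had 6.96, 6.92, 6.94 and 7.05 in HU against 6.91, 6.76, 6.66 and 6.75 in WB (1.15-fold, limma adjusted p = 0.0368).

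The Psmg4 call was the least firm of the 24: it held without WB replicate 1 but not without any of the other 7 arrays, with limma adjusted p between 0.0555 without HU replicate 2 and 0.0955 without HU replicate 4. Psmd10, a chaperone of the 19S base, had 7.93, 7.95, 7.90 and 7.94 in HU against 7.92, 7.94, 8.00 and 7.93 in WB, with overlapping groups (log2 change -0.02, 95% confidence interval -0.11 to 0.08, limma adjusted p = 0.78). The other base chaperones, Psmd5 (-0.03) and Psmd9 (-0.02), and the core maturation factor Pomp (0.07, limma adjusted p = 0.283) were not called either. Psmc3ip, a meiotic recombination factor, and Psme3ip1 had log2 changes of 0.03 and 0.07 and were not called.

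**Figure D4:**
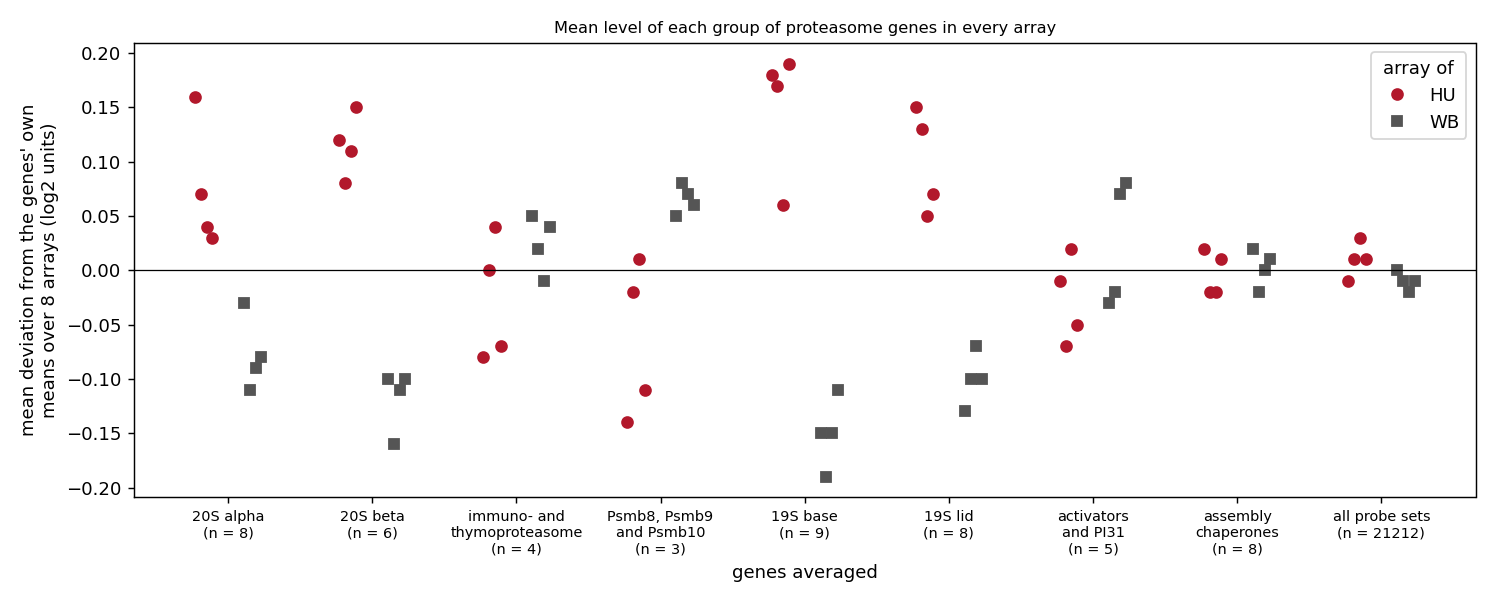
Mean over the genes of each role of the log2 deviation from each gene's own mean over the 8 arrays, per array, HU circles left of WB squares; the number of genes averaged stands under each role, and all probe sets are at the right. HU and WB arrays are apart for the 20S and 19S subunits and overlap for the activators and chaperones; they overlap for the immunoproteasome group of 4 genes but not for Psmb8, Psmb9 and Psmb10 without Psmb11.

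Averaged over the 31 core and cap subunits, the deviation from each gene's own mean was 0.16, 0.12, 0.06 and 0.11 in HU against -0.10, -0.14, -0.11 and -0.10 in WB. The HU arrays thus differed more among themselves than the WB arrays did. HU replicate 1 was the highest HU array for 14 of the 31 subunits, and HU replicate 3 was the lowest for 15. Among the WB arrays, replicates 1 and 3 were each the highest for 10, and replicate 2 was the lowest for 14. For the chaperones the range was -0.02 to 0.02 in HU and -0.02 to 0.02 in WB, and for the immunoproteasome group with Psmb11 it was -0.08 to 0.04 in HU against -0.01 to 0.05 in WB. Without Psmb11, a choice made after seeing the data, Psmb8, Psmb9 and Psmb10 averaged -0.14, -0.02, 0.01 and -0.11 in HU against 0.05, 0.08, 0.07 and 0.06 in WB, and these means did not overlap. The SD of a gene over the 4 arrays of a group had a median of 0.07 in HU and 0.06 in WB.

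The promoters of the genes with the largest changes were read from RefSeq (GRCm38.p6), together with that of Psmd12, since NF-kB signalling was the subject of the study. Of the 42 proteasome genes with a promoter window, Psmd12 was the only 1 with a match to the NF-kB consensus. Each runs 5′ to 3′ on the strand of the gene, from 250 bases before the transcription start to 50 bases after it, with motif matches on either strand in capitals. Psmd4 lies on the minus strand at chr3:95042565-95042864, Psma7 on the minus strand at chr2:180042415-180042714, Psmd2 on the plus strand at chr16:20651402-20651701, Psme1 on the plus strand at chr14:55578244-55578543 and Psmd12 on the plus strand at chr11:107479278-107479577.
Psmd4: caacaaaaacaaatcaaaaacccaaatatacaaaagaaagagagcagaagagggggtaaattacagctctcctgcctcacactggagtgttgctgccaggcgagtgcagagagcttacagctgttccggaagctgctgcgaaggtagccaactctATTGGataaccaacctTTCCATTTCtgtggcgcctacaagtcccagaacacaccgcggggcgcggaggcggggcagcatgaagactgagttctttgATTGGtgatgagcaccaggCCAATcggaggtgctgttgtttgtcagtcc
Psma7: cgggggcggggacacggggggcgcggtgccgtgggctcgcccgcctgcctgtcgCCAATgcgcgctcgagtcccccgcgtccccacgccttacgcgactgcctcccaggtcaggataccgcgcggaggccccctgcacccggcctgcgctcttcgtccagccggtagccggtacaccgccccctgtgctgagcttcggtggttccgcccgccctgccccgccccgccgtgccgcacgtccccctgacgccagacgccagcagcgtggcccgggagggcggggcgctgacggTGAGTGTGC
Psmd2: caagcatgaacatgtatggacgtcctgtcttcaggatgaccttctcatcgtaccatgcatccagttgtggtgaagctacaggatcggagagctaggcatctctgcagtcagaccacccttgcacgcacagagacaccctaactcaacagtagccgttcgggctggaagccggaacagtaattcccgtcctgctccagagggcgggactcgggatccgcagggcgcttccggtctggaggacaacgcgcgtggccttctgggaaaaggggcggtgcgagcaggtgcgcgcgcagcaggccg
Psme1: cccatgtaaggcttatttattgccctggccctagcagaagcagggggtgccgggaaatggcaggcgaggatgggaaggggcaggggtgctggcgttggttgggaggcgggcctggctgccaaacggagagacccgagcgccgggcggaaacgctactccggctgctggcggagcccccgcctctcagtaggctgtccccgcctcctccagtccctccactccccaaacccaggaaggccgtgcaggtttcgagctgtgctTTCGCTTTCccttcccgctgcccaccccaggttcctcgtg
Psmd12: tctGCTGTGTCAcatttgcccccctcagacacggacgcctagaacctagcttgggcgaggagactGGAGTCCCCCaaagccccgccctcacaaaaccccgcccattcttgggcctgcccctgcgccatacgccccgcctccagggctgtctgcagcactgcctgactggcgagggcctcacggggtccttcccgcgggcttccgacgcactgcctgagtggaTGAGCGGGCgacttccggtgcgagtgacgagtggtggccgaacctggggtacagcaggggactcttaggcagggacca

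In Psmd4 the capitals mark CCAAT, the letters bound by NF-Y, at 3 places, and the core of the interferon-stimulated response element, GAAANNGAA, at 1. Psma7 holds CCAAT and the antioxidant response element core TGAGNNNGC, Psme1 holds GAAANNGAA near its start, Psmd2 holds none of the motifs searched, and Psmd12 holds TGACNNNGC, TGAGNNNGC and the NF-kB consensus. The GAAANNGAA motif was added after the expression values had been seen. Letters written N stand for any base, both strands were searched, and TGACNNNGC and TGAGNNNGC are versions of the element that the transcription factors Nrf1 and Nrf2 bind.

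Of the 50 genes, 42 had a window in the RefSeq table, 18 of them called higher. Either antioxidant core was found for 8 of the 18 higher genes and 8 of the other 24, and in 27.8% of all 32851 windows. TGAGNNNGC alone was found for 8 of 18 and 5 of 24 (17.6% of all windows), TGACNNNGC for 1 of 18 and 4 of 24 (12.4%), and GAAANNGAA for 5 of 18 and 3 of 24 (8.56%). CCAAT was found for 5 of 18 and 11 of 24 (37.4%), and the FoxO motif GTAAACA for none of the 42 (3.65%). The NF-kB consensus was found for 1 of the 42 genes, Psmd12, and in 4.51% of all windows. Some genes have more than 1 window, and a match is a run of letters, not a measured binding site.

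Genes that hand ubiquitinated proteins to the proteasome were looked at next. Of 8 proteins that bind the particle without carrying a Psm name, only Adrm1 was called (12.5%, against 12.8% of all probe sets called higher). Adrm1 is a ubiquitin receptor of the particle, and it had 9.28, 9.33, 9.31 and 9.14 in HU against 8.77, 8.66, 8.65 and 8.76 in WB (1.47-fold, limma adjusted p = 1.4e-04). Of 11 shuttle and unfoldase cofactors, 5 rose (45.5%) and none fell. Among all probe sets 12.8% were called higher, and among the brighter probe sets, tested on their own, 20.8% were. Nploc4, which with Ufd1 delivers substrates to the unfoldase, had 11.44, 11.45, 11.39 and 11.48 in HU against 10.66, 10.68, 10.69 and 10.85 in WB (1.65-fold, limma adjusted p = 2.4e-05). Ufd1 rose 1.26-fold (limma adjusted p = 0.0023). For Adrm1, Nploc4 and Ufd1 the groups did not overlap.

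The genes of the Nrf1 route, by which cells are known to raise proteasome transcription when proteolysis falls short, gave 2 increases among 7 (28.6%). The share called higher was 12.8% of all probe sets and 20.8% of the brighter 50% tested on their own. The transcription factor itself, Nfe2l1, had a log2 change of -0.01 (95% confidence interval -0.12 to 0.11, limma adjusted p = 0.908). Ddi2, the protease that cleaves Nrf1, had 10.66, 10.59, 10.52 and 10.36 in HU against 10.25, 10.21, 10.05 and 10.04 in WB (1.32-fold, limma adjusted p = 0.00452). Ngly1, which removes its sugars, had 9.43, 9.34, 9.53 and 9.40 in HU against 9.03, 9.06, 9.20 and 9.14 in WB (1.24-fold, limma adjusted p = 0.00428). The mRNA level says nothing of the processing of the protein.

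Of 11 genes of antigen presentation and the interferon response, 4 were lower in HU (36.4%) and none higher. The immunoproteasome and Psme1 are known to be induced with such genes. The share called lower was 11.0% of all probe sets and 21.9% of the brighter probe sets tested on their own. Erap1, which trims peptides, had 7.07, 6.83, 6.80 and 6.84 in HU against 7.34, 7.17, 7.33 and 7.23 in WB (1.31-fold lower, limma adjusted p = 0.00323). B2m, the light chain of class I molecules, was 1.23-fold lower in HU (limma adjusted p = 0.00758, and 0.0632 with the methods' t-test). The part of the macrophage markers in these values was not tested either.

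The labelled tissue was checked with 10 muscle fibre markers, which all had mean log2 levels of 11.78 or more. Their summed linear level was 67082 to 67967 in HU against 71446 to 74829 in WB. The share called lower was 11.0% of all probe sets and 21.9% of the brighter 50% tested on their own. Of the 10 fibre markers, 4 were called lower in HU (40.0%). The largest changes among these were those of Myh2 (1.73-fold lower, limma adjusted p = 9.3e-04, and 0.0561 with the methods' t-test), Mb (1.16-fold lower, 0.0147) and Pvalb (1.11-fold lower, 0.0418). Pvalb was the weakest of them and lost its call after quantile normalization (0.184) and without any of the arrays but WB replicate 4. Of 9 fibroblast markers, 7 were lower in HU (77.8%, against 11.0% of all probe sets and 21.9% of the brighter 50%). They were led by Col1a1 (5.58-fold lower, limma adjusted p = 3.7e-06), Postn (4.24-fold lower, 6.3e-05) and Col1a2 (4.06-fold lower, 4.6e-06). The summed linear level of the 9 was 6952 to 7262 in HU against 10436 to 12018 in WB. Of 6 endothelial markers, 2 were lower (33.3%, against 11.0% of all probe sets and 21.9% of the brighter 50%). They were Kdr (1.39-fold lower, limma adjusted p = 6.6e-04) and Emcn (1.29-fold lower, limma adjusted p = 0.00261). The part of these shifts in the proteasome values was not tested.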

How the data were processed

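RNA of 8 mouse muscles, 4 HU and 4 WB, was hybridised to Affymetrix whole-transcript arrays. The authors normalized the arrays by RMA with a custom probe set definition, and the deposited values are log2 expression, 1 per probe set. That definition has a release and a genome build not given in the sources used here. All 8 columns were used as deposited. No array was identical to another, array medians were 6.28 to 6.33, and r was 0.9962 to 0.9973 within groups and 0.9917 to 0.9936 between them. Their number limits the precision.

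Probe sets were named from the platform annotation (18786) or by Entrez ID in RefSeq (1917); 6 had several symbols and 503 had none, and these were not named. HU was compared with WB by limma (version 3.58.1, R 4.3.3; linear model with empirical Bayes, two-sided), and p-values were adjusted by Benjamini-Hochberg over 21212 probe sets, with an adjusted p under 0.05 as the call. Code was tested on simulated data. Ratios within arrays were compared by two-sided exact permutation tests (Python 3.11.15). Changes are HU minus WB on the log2 scale, and summed marker levels are on the linear scale.

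The genes and lists were chosen with earlier results of these data known. Per-array values are given, by a set rule, for the 3 called genes of each role with the largest changes, genes called lower, the inducible catalytic subunits with their partners, genes that the study lists for Bcl-3 binding (Psmb7, Psmc1, Psmc4 and Psmc5), and the gene of each role that changed least; other lists gave up to 3 called genes each. Psmc2, Psmd6, Psmd11, Psmd13, Nfe2l1 and the other genes outside the rule were named after their values had been seen. Alternatives were other tests, variance models, filters, normalizations, a replicate block and leaving out each array. Psmb5 and the motif windows of 8 genes were not analysed here. Values of 2 genes of the other lists are not reported here.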

Additional observations from a re-analysis of the deposited data

Results flagged for a closer look

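Of 100 groups of 4 arrays, covering 50 named genes in HU and WB, 4 held an array set apart from the other 3 by more than the critical value of Dixon's test, which about 1 group in 20 passes by chance. The WB group of Psma5 had replicate 1 at 8.50, with the others at 8.40 to 8.41. The HU group of Psmc5 had replicate 2 at 9.05, with the others at 9.10. For Erap1, HU replicate 1 was at 7.07 and the others at 6.80 to 6.84. For Nploc4, WB replicate 4 was at 10.85 and the others at 10.66 to 10.69. In all 4 cases the HU and WB groups did not overlap.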

How the results depend on the processing

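Direction was followed for 29 proteasome genes under 21 alternatives and for 21 genes of the other lists under 11, and none of those called turned its direction. Of the 29 proteasome genes with per-array values, 17 kept their side of the threshold under all 21 alternatives. The count of proteasome genes called higher (22) was 11 with a minimum change of 1.2-fold, and 16 to 26 otherwise. The count called lower (2) was 1 with that minimum, 1 with the methods' t-test on the linear scale, 6 with an unadjusted p, and 4 without the dimmest 50% of probe sets. Leaving out 1 array gave 19 to 21 genes higher and 2 to 3 lower, and a median log2 change of 0.11 (without HU replicate 1) to 0.15. The change in the ratio of Psmb9 to Psmb6 was -0.13 to -0.07 and that of Psmb10 to Psmb7 was -0.38 to -0.30 with 1 array left out. After quantile normalization the change in the ratio of Psmb9 to Psmb6 was -0.09 (exact permutation p = 0.0571). The ratio of Psmb8 to Psmb5 was not run, since Psmb5 was not analysed here. The causes of these differences were not tested, other than that a minimum change and a stricter or looser threshold act on the counts by construction.

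The labels do not say that same-numbered HU and WB arrays form pairs. Deviations of same-numbered arrays from their group means correlated across probe sets at 0.0242, 0.0366, 0.12 and 0.0954. Those of differently numbered arrays correlated at -0.138 to 0.102. HU replicates 2, 3 and 4 correlated best with the WB array of their own number, and HU replicate 1 with WB replicate 3. Correlations this weak do not settle whether the arrays were paired. With the number as a replicate block, 20 genes were called higher and 3 lower, the change in the ratio of Psmb9 to Psmb6 was -0.10 and that of Psmb10 to Psmb7 was -0.34, both with an exact permutation p of 0.125, the smallest that 4 pairs allow. Low signal limits Psma8, Psmb11 and Psmg3, and 4 arrays a group limit the smaller changes.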
